A study of Mus musculus with 24 samples.

Results

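Messenger RNA of the nucleus accumbens (NAc) was compared between unstressed females and unstressed males of the mouse strain C57BL/6J in 6 of the 24 samples of the series, which holds a set of RNA-Seq libraries beside small RNA libraries not used here. The 3 RNA-Seq libraries of unstressed females (NSF1 to NSF3) and the 3 of unstressed males (NSM1 to NSM3) were chosen by their labels alone, and no measured value entered the choice. The mice were labelled as 9 weeks old, the unstressed ones stayed group-housed in their home cage, and the females were taken in estrus or proestrus. Per the study's methods, all females underwent vaginal lavage at sacrifice. Sex, these cycle stages and that handling therefore cannot be told apart. Each library was a pool of bilateral punches of the ventral striatum from several mice, so the spread between libraries is the spread between pools. The groups with which this sex difference was set side by side were 3 libraries of females (SF) and 3 of males (SM) of the same strain and age that had gone through subchronic variable stress (SCVS), a series of alternating foot shock, tail suspension and restraint sessions.

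The NAc is built mostly of GABAergic medium spiny neurons, which carry either the D1 or the D2 dopamine receptor, together with small populations of cholinergic and other interneurons, glia and vessels. Its shell holds neurons rich in neuropeptides and in the D3 receptor, while cortex, septum, the ventricle wall and the preoptic area lie close to the place a punch is taken from. A transcript of a bulk punch can differ between groups because fewer cells of a type were collected or because each cell held less of the RNA, and these cannot be told apart in any value below. For this reason genes are described by cell type and region, followed by receptors and by the genes of hormone, activity and stress responses.

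For 4 genes whose sex difference is described at length, and for 1 chaperone gene, the bases just before the annotated start are shown. They are the 250 bases before the start in RefSeq's promoter table of GRCm38.p6, found once each by exact match in NCBIM37, the build of the files. *Nts* (chr10:101953053-101953302, minus strand), encoding the peptide neurotensin, and *Prok2* (chr6:99676387-99676636, minus strand), encoding prokineticin 2, were both lower in unstressed females, and capitals mark a match to the AP-1 motif TGANTCA, a site at which Fos and Jun family factors bind:
Nts: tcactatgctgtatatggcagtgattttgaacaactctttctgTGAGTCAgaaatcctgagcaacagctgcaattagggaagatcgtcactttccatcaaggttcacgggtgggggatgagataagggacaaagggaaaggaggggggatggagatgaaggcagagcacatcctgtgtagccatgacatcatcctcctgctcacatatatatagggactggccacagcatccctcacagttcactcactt
Prok2: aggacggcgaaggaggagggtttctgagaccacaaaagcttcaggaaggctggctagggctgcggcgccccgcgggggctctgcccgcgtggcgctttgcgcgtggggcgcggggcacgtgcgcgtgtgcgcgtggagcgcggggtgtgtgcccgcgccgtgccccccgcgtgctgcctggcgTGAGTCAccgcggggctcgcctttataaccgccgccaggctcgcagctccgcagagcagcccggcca
*Slc5a3* (chr16:92058317-92058566, plus strand), the sodium-coupled *myo*-inositol transporter, and *Chordc1* (chr9:18096461-18096710, plus strand), a partner of the chaperone Hsp90, had sex differences of opposite sign before and after stress, and capitals mark the GC box GGGCGG on either strand:
Slc5a3: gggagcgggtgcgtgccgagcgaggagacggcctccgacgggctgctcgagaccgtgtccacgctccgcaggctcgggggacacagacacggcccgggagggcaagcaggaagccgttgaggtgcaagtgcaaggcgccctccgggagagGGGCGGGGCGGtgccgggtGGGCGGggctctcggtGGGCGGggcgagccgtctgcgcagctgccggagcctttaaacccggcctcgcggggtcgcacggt
Chordc1: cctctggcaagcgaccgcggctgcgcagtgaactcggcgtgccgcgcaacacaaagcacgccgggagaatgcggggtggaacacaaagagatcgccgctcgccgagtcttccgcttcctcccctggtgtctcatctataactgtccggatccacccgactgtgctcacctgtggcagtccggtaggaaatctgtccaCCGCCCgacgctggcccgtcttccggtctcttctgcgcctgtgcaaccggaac
*Hspe1* (chr1:55144742-55144991, plus strand), a mitochondrial chaperonin subunit that lies head to head with *Hspd1*, stands for the heat shock chaperones, and capitals mark 2 overlapping matches to the heat shock element:
Hspe1: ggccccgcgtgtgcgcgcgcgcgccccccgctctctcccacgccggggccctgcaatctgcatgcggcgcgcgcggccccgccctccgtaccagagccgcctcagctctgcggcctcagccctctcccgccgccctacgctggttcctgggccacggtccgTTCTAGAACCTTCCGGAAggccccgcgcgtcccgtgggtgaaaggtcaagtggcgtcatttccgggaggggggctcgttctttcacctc
Searched on both strands of all 32851 windows of the table, the AP-1 motif was in 6.75%, the GC box in 32.7% and the heat shock element in 0.466%. Among the 85 windows of genes called lower in unstressed females, which cover 73 genes, 10 (11.8%) held the AP-1 motif. It was in 4.77% of the windows of all autosomal genes tested and in 5.57% of those of genes called higher. The GC box was in 31.8%, 53.5% and 54.9% of these windows, in the same order. In that order the heat shock element was in 0%, 0.41% and 0.656%. A further motif searched, the CRE motif TGACGTCA, was in 2.35%, 2.41% and 0.984%. The median GC content of these windows was 52%, 59.2% and 61.2%, and whether the motif shares follow base composition was not tested. The palindromic oestrogen response element was in 21 windows of the whole table and in 0 of those of the autosomal genes tested. The motifs were chosen with the expression values known, and a match describes letters, not binding.

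Between 44080541 and 60867747 reads were counted per unstressed library. Each female library held at least 1075 CPM (the depth-scaled read count, with TMM factors) of *Xist* and each male library at most 3.09 CPM, so all 6 libraries were of the labelled sex. The 12 genes that mark medium spiny neurons summed to between 8422 and 10045 CPM in the 6 libraries, with no gap between the sexes. Some libraries stood apart. NSF1 and NSF3, but not NSF2, held far more of the transcripts of cortical glutamatergic neurons than any male library, NSM1 held more choroid plexus transcripts than the other 5, and the level of GC-rich genes differed between libraries. These values are given beside the results they touch. The mean log2 level of the listed cortical genes, used below as a covariate, was 3.61, 1.66 and 3.98 in NSF1 to NSF3. It was 1.17, 0.58 and 1.45 in NSM1 to NSM3. Every female library lay above every male one, so this covariate and sex cannot be fully told apart. Whether a call lost with it came from cortical tissue was not tested.

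Of 17078 autosomal genes tested, 904 (5.29%) differed by at least 1.3-fold at an unadjusted p under 0.05, the rule used by the study and here termed called. In unstressed females 729 genes (4.27% of those tested) were called higher and 175 (1.02%) lower. After Benjamini-Hochberg adjustment over all genes tested, 42 genes (0.246%) remained at an adjusted p under 0.05, 26 higher and 16 lower in females. The median log2 fold change of all autosomal genes was 0.0070, and the median absolute value was 0.096, so that most genes differed by little. The values of the 3 females lay entirely above or entirely below those of the 3 males for 3346 genes (19.6%) and for 645 of the 904 called genes. The 42 genes were a number that single libraries decided: it was 0 without NSF3 or without NSM2, 8 without NSM3, 11 without NSM1, 12 without NSF1 and 441 without NSF2, while all 42 kept their sign at an unadjusted p under 0.05 in each of these 6 fits. The 729 genes called higher became 473 without NSF3 and 448 without NSM1. With the GC content of exons removed from each library, 27 of the 42 genes stayed under an adjusted p of 0.05.

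The 10 largest differences among the genes higher in females at an adjusted p under 0.05 included genes of the extracellular matrix, of synapses, of retinoid synthesis and of vessels. In the values that follow, libraries are listed in the order of their numbers. *Nrgn* (chromosome 9, 37352078 to 37360330) encodes neurogranin, a calmodulin-binding protein of dendritic spines, and had 252, 333 and 293 CPM in NSF and 118, 162 and 198 CPM in NSM. Its log2 fold change was 0.90 ± 0.17 (SE, adjusted p = 0.0499 in limma). All 3 females lay above all 3 males, and among males the level ran from 118 CPM in NSM1 to 198 CPM in NSM3. The level of the most GC-rich genes rose in the same order of male libraries. Exons of *Nrgn* are 58.6% GC and those of *Hapln2*, described below, 57.6%, against a median of 50% over all autosomal genes tested. *Abi3bp* (chromosome 16, 56477957 to 56690241), a secreted matrix protein, had 15.2, 15.3 and 18.3 CPM in NSF and 9.69, 7.84 and 8.40 CPM in NSM, a difference of 0.90 ± 0.13 (log2, SE, adjusted p = 0.0173). *Hapln2* (chromosome 3, 87825672 to 87831505) encodes a link protein of the matrix at nodes of Ranvier and had 11.7, 13.2 and 15.5 CPM in NSF and 6.39, 7.32 and 9.05 CPM in NSM, a difference of 0.84 ± 0.14 (log2, SE, adjusted p = 0.0285). Both were separated between the sexes without overlap. *Aldh1a1* (chromosome 19, 20676451 to 20717952), an enzyme that makes retinoic acid, had 10.5, 10.9 and 12.2 CPM in NSF and 6.74, 7.28 and 5.80 CPM in NSM, a log2 fold change of 0.77 (adjusted p = 0.0192).

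The rest of the 10 included genes of low abundance and genes that share reads with a neighbour. *Fam198b* had 9.02, 9.75 and 7.99 CPM in NSF and 5.21, 4.21 and 4.42 CPM in NSM. *Atp6ap1l*, related to a subunit of the vacuolar proton pump, had 3.27, 4.55 and 4.21 CPM in NSF and 2.31, 1.85 and 2.07 CPM in NSM. *Wnt4*, a secreted Wnt ligand, had 4.55, 4.22 and 5.27 CPM in NSF and 2.35, 2.72 and 3.31 CPM in NSM. All 3 were separated between the sexes without overlap, with log2 fold changes of 0.95, 0.95 and 0.75. *Kcnh7*, a voltage-gated potassium channel gene, had 35.8, 32.3 and 44.01 CPM in NSF and 22.7, 22.2 and 23.3 CPM in NSM, and its difference of 0.70 became 0.29 (log2) when the cortical level of each library was a covariate. *Coro2a*, a coronin that binds actin, and *Acvrl1*, a receptor of endothelial cells for ligands of the TGF-beta family, differed by 0.67 and 0.65 (log2). *Kcnh7*, *Coro2a* and *Acvrl1* overlap exons of a gene on the other strand (*Gca*, *Gm16731* and *Gm16031*), and since the library kit does not mark strand, reads of the partners cannot be told apart. Outside the rule for named genes, and chosen after their values were seen, 2 further genes may be named. *Cntnap1*, encoding the paranodal axon protein Caspr, had the smallest p of all autosomal genes at a small difference, 0.35 ± 0.049 (log2, SE, adjusted p = 0.0133), from 225, 230.2 and 244 CPM in NSF and 181, 182 and 184 CPM in NSM, though *Plekhh3* overlaps its exons on the other strand. *Cnr1*, the CB1 cannabinoid receptor, had 114, 122 and 142 CPM in NSF and 84.8, 84.6 and 87.1 CPM in NSM, a difference of 0.55 ± 0.10 (log2, SE, adjusted p = 0.0353).

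The genes lower in unstressed females at an adjusted p under 0.05 differed by less, and among the 10 largest were signalling, synaptic and transport genes. *Gem* (chromosome 4, 11631604 to 11641899), a small GTPase that restrains voltage-gated calcium channels, had 1.89, 1.73 and 2.02 CPM in NSF and 3.07, 3.13 and 3.47 CPM in NSM, a log2 fold change of -0.78 ± 0.12 (SE, adjusted p = 0.0217). *Cbln4* (chromosome 2, 171861733 to 171868966), a secreted synapse organizer, had 14.1, 15.3 and 12.3 CPM in NSF and 20.8, 19.6 and 22.9 CPM in NSM, a difference of -0.60 ± 0.11 (log2, SE, adjusted p = 0.0457). *Fabp7* (chromosome 10, 57504687 to 57508256), the fatty acid binding protein of astrocytes and radial glia, had 17.5, 15.4 and 15.6 CPM in NSF and 25.8, 24.5 and 21.3 CPM in NSM, a difference of -0.56 ± 0.085 (log2, SE, adjusted p = 0.0192). In all of them the highest female lay below the lowest male. *Slc5a3* (chromosome 16, 92058567 to 92087718), whose upstream bases are shown above, had 41.5, 51.2 and 46.3 CPM in NSF and 59.5, 66.4 and 63.3 CPM in NSM, a difference of -0.45 ± 0.074 (log2, SE, adjusted p = 0.0303). *Adam12*, a membrane metalloprotease, had 17.6, 17.1 and 15.95 CPM in NSF and 23.2, 23.3 and 23.8 CPM in NSM, and *Zdbf2*, an imprinted gene, had 95.3, 116 and 98.7 CPM in NSF and 131, 139 and 136 CPM in NSM. *Fam196b*, *Tcerg1l* and *Fam126a* differed by -0.55, -0.52 and -0.39 (log2), again without overlap. *Utp14b* differed by -0.69 (log2), but it shares exons with *Acsl3* on the same strand, as *Slc5a3* does with *Mrps6* and *Gm16309*, and *Zdbf2* overlaps *AL669947.1* on the other strand, so their counts depend on how shared reads were assigned. With the cortical level as covariate, *Cbln4*, *Tcerg1l*, *Adam12*, *Slc5a3*, *Zdbf2* and *Fam126a* were no longer called, at differences of -0.35, -0.33, -0.38, -0.24, -0.17 and -0.32 (log2). The call of *Zdbf2* was lost without NSF1 (-0.35), NSF3 (-0.37) or NSM2 (-0.38), and that of *Fam126a* without NSF2 (-0.36), NSF3 (-0.38) or NSM2 (-0.38).

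**Figure D1:**
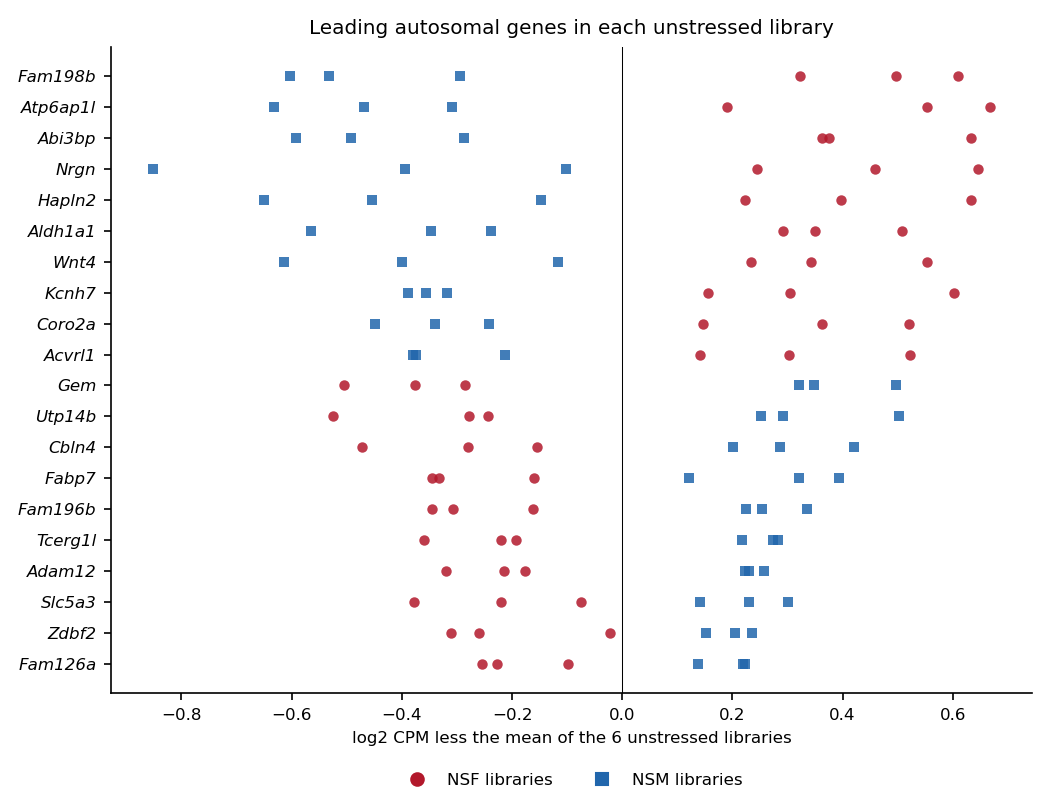
Level of the 10 leading genes higher and the 10 lower in unstressed females, as log2 CPM less the mean of the 6 unstressed libraries, with 1 point per library (circles, females; squares, males). For each of the 20 genes, the 3 female and 3 male points do not overlap, which was part of the rule by which they were chosen.

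None of the 12 general, 8 D1-type and 5 D2-type markers tested was called, where 5.29% of all autosomal genes were. *Ppp1r1b*, encoding the dopamine-regulated phosphatase inhibitor DARPP-32, had 820.2, 1006 and 817 CPM in NSF and 815, 830.1 and 761 CPM in NSM. The D1 receptor gene *Drd1a* had 288, 322 and 272 CPM in NSF and 317, 329.7 and 278 CPM in NSM, and the D2 receptor gene *Drd2* had 139.9, 160.1 and 141 CPM in NSF and 148, 143 and 130.1 CPM in NSM. The female and male values of all 3 overlapped, and their log2 fold changes were 0.13, -0.068 and 0.066, with standard errors of 0.081, 0.089 and 0.077. *Rgs9*, *Tac1* and *Adora2a* lay at 0.062, -0.053 and 0.087 (log2). The medians of the general, D1-type and D2-type lists were 0.054, -0.053 and 0.087 (log2). With the cortical covariate the general and D2-type medians were 0.23 and 0.24 with 1 and 2 genes called higher, and without both NSF1 and NSF3 0.17 and 0.21 with 1 each. Among the D1-type genes the prodynorphin gene *Pdyn*, with 354, 307 and 298 CPM in NSF and 414, 448 and 376 CPM in NSM, was lower in each female library than in any male library at a log2 fold change of -0.37 (unadjusted p = 0.00358), just short of the fold limit of the rule, and without NSF1 or NSM3 it was called at -0.45 or -0.44.

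**Figure D2:**
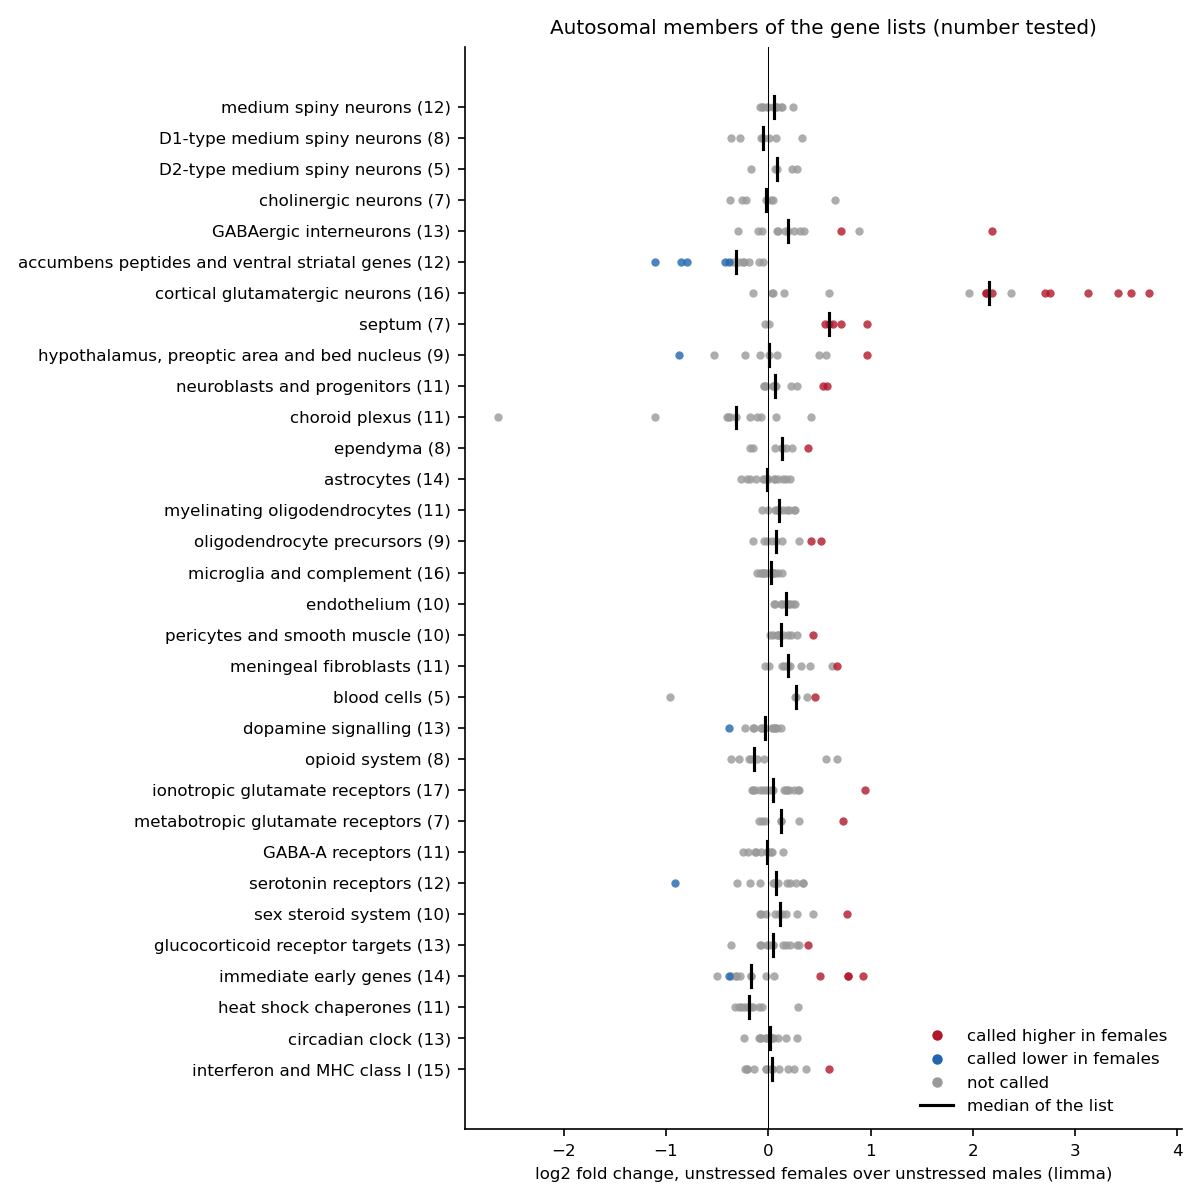
Log2 fold change of unstressed females over unstressed males for each autosomal member of the 32 gene lists (points; red, called higher; blue, called lower; grey, not called) with the median of each list (bar). The medians of the cortical glutamatergic and septal lists lie to the right, all 12 accumbens and ventral striatal genes lie left of 0, and the medium spiny neuron lists lie around 0.

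In contrast, the listed accumbens peptide and ventral striatal genes lay lower in unstressed females. As with every list, its members were chosen with earlier results of these data known. The counts therefore describe the list and are no independent support. Of 12 autosomal genes on this list, 5 were called lower and 0 higher, where 1.02% of all autosomal genes were called lower, all 12 had a negative log2 fold change, and 8 were separated between the sexes without overlap (19.6% of all genes, both directions). The median of the list was -0.32 (log2), and its summed level was 1530 to 1871 CPM in females and 2053 to 2222 CPM in males. *Nts* (chromosome 10, 101944394 to 101953052), encoding neurotensin, a peptide that modulates dopamine transmission, had 24.8, 23.5 and 28.9 CPM in NSF and 38.2, 49.9 and 46.5 CPM in NSM. Its log2 fold change was -0.80 ± 0.21 (SE, adjusted p = 0.115). *Prok2* (chromosome 6, 99661293 to 99676386), a secreted signal involved in circadian output and olfactory neurogenesis, had 0.744, 1.22 and 1.19 CPM in NSF and 2.38, 1.89 and 2.52 CPM in NSM, a difference of -1.10 ± 0.21 (log2, SE, adjusted p = 0.0511). The highest female value of each gene lay under the lowest male value. *Drd3* (chromosome 16, 43762334 to 43823045), the D3 dopamine receptor, had 9.65, 9.67 and 8.90 CPM in NSF and 12.7, 12.8 and 11.3 CPM in NSM, a difference of -0.38 ± 0.089 (log2, SE, adjusted p = 0.0909).

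*Peg10* and *Dlk1*, imprinted genes that are expressed from the paternal allele, were the other members called lower. *Peg10* (chromosome 6, 4697306 to 4710514) had 191, 246 and 164 CPM in NSF and 367, 299.8 and 413 CPM in NSM, a difference of -0.85 ± 0.18 (log2, SE, adjusted p = 0.0654). *Dlk1* (chromosome 12, 110691033 to 110701546), a membrane ligand related to Notch ligands, had 117, 132 and 103 CPM in NSF and 160.4, 143 and 167 CPM in NSM, a difference of -0.42 ± 0.12 (log2, SE, adjusted p = 0.127). None of the 5 reached an adjusted p under 0.05. Of the members not called, *Wfs1*, *Oprm1*, *Cartpt* and *Nnat* lay at -0.34, -0.29, -0.24 and -0.23 (log2), and *Crym* and *Calb1* at -0.087 and -0.048. Removing NSF3 left 3 called members, since *Dlk1* and *Drd3* were lost. The call of *Dlk1* was lost without NSF3 (-0.33) or NSM3 (-0.38), and that of *Drd3* without NSF3 (-0.35), NSM1 (-0.36) or NSM2 (-0.35). With the exon GC content removed 6 were called, without both NSF1 and NSF3 4, and with the cortical level as covariate 1, at a median of -0.19 (log2).

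Genes listed for cortical glutamatergic neurons differed most in size. Of 16 tested, 9 were called higher and 0 lower in unstressed females (4.27% of all genes were called higher), with a median log2 fold change of 2.15. *Slc17a7*, the vesicular glutamate transporter VGLUT1, had 209, 16.4 and 297 CPM in NSF and 11.97, 4.02 and 16.4 CPM in NSM. *Neurod6*, a transcription factor of pyramidal neurons, had 10.6, 0.775 and 12.4 CPM in NSF and 0.371, 0.102 and 0.671 CPM in NSM. *Tbr1*, a factor of deep-layer neurons, had 22.7, 2.33 and 31.7 CPM in NSF and 1.68, 0.833 and 2.76 CPM in NSM. In each, NSF1 and NSF3 were high and NSF2 lay close to the males. The summed level of the list was 487, 241 and 604 CPM in the female libraries and 223, 201 and 224 CPM in the male libraries. No called member exceeded 16.4 CPM in a male library, and members not called made up most of the male sums. *Neurod2*, *Emx1*, *Nrn1*, *Cplx3*, *Ctgf* and *Adcyap1* were the other members called higher, at log2 fold changes of 3.55, 3.13, 2.70, 2.13, 2.13 and 2.18, with exons of *Ctgf* overlapped by *Gm15270* on the other strand, whereas *Cux2*, *Rorb* and *Etv1* lay at 0.040, 0.16 and 0.046. No member reached an adjusted p under 0.05, the smallest being 0.145 for *Emx1*. *Slc17a7*, *Ctgf* and *Emx1* stayed called without any single library. The count fell to 4 without NSF1, 5 without NSF3, 4 without NSM1, 3 without NSM2 and 4 without NSM3, rose to 12 without NSF2, and was 0 without both NSF1 and NSF3, at a median of 0.55.

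Genes of the septum were higher in unstressed females in a different distribution over libraries. Of 7 tested, 5 were called higher and 0 lower, where 4.27% of all autosomal genes were called higher. All 5 were without overlap between the sexes (19.6% of all genes, both directions). The summed level was 58.3, 74.2 and 88.2 CPM in females and 45.5, 43.5 and 55.2 CPM in males. *Zic1*, a zinc finger factor of septal and midline neurons, had 32.9, 42.9 and 49.6 CPM in NSF and 23.9, 25.5 and 31.2 CPM in NSM, a difference of 0.63 ± 0.21 (log2, SE, adjusted p = 0.184). *Zic4* had 4.51, 4.65 and 6.48 CPM in NSF and 2.29, 2.54 and 3.10 CPM in NSM, a difference of 0.97 ± 0.31 (log2, SE, adjusted p = 0.163). *Zic2*, *Zic5* and the cation channel gene *Trpc4* differed by 0.71, 0.55 and 0.59 (log2), while *Crhr2* and *Glp1r* lay at -0.031 and 0.0025. NSF2, which was low in cortical genes, was above every male library in all 5 called genes. *Zic1* and *Zic4* alone stayed called without any single library, and they overlap on opposite strands and are not independent measurements. *Zic5* (122856017 to 122864899) and *Zic2* (122874604 to 122879074) also lie close together on opposite strands, on chromosome 14. The count was 2 without NSF3, 2 without NSM2, 2 without both NSF1 and NSF3 and 0 with the cortical covariate, where the median was 0.42.

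Of hypothalamic and preoptic genes 2 of 9 were called, and of progenitor genes 2 of 11, where 5.29% of all autosomal genes were. Of 15 genes listed for hypothalamus, preoptic area and bed nucleus 9 passed the filter on low counts, and of these *Slc17a6*, the glutamate transporter VGLUT2 of subcortical neurons, was called higher with 4.26, 2.77 and 7.39 CPM in NSF and 2.47, 1.75 and 2.43 CPM in NSM. *Calcr*, the calcitonin receptor, was called lower with 6.76, 7.42 and 5.31 CPM in NSF and 14.8, 7.80 and 14.3 CPM in NSM, and it stayed called without any single library, but not with the cortical covariate (-0.58) or without both NSF1 and NSF3 (-0.70). The peptide genes *Gal*, *Crh*, *Agrp* and *Pomc* were not called, at 0.49, -0.53, 0.087 and 0.57 (log2). Among 11 genes of neuroblasts and progenitors, *Sp8* and *Dlx2*, factors of developing GABAergic neurons, were called higher at 0.58 and 0.53 (log2), and *Dlx1* lay at 0.28. The proliferation genes *Mki67* and *Top2a* lay at 0.044 and 0.069. The call of *Slc17a6* was lost without NSF1 (0.96), NSF3 (0.60), NSM1 (1.05), NSM2 (0.81) or NSM3 (1.03). The call of *Sp8* was lost without NSF2 (0.56), NSF3 (0.50) or NSM1 (0.46), and that of *Dlx2* without NSM1 (0.28). Both calls were lost with the cortical covariate and without both NSF1 and NSF3, and that of *Dlx2* with GC content removed (0.36).

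**Figure D3:**
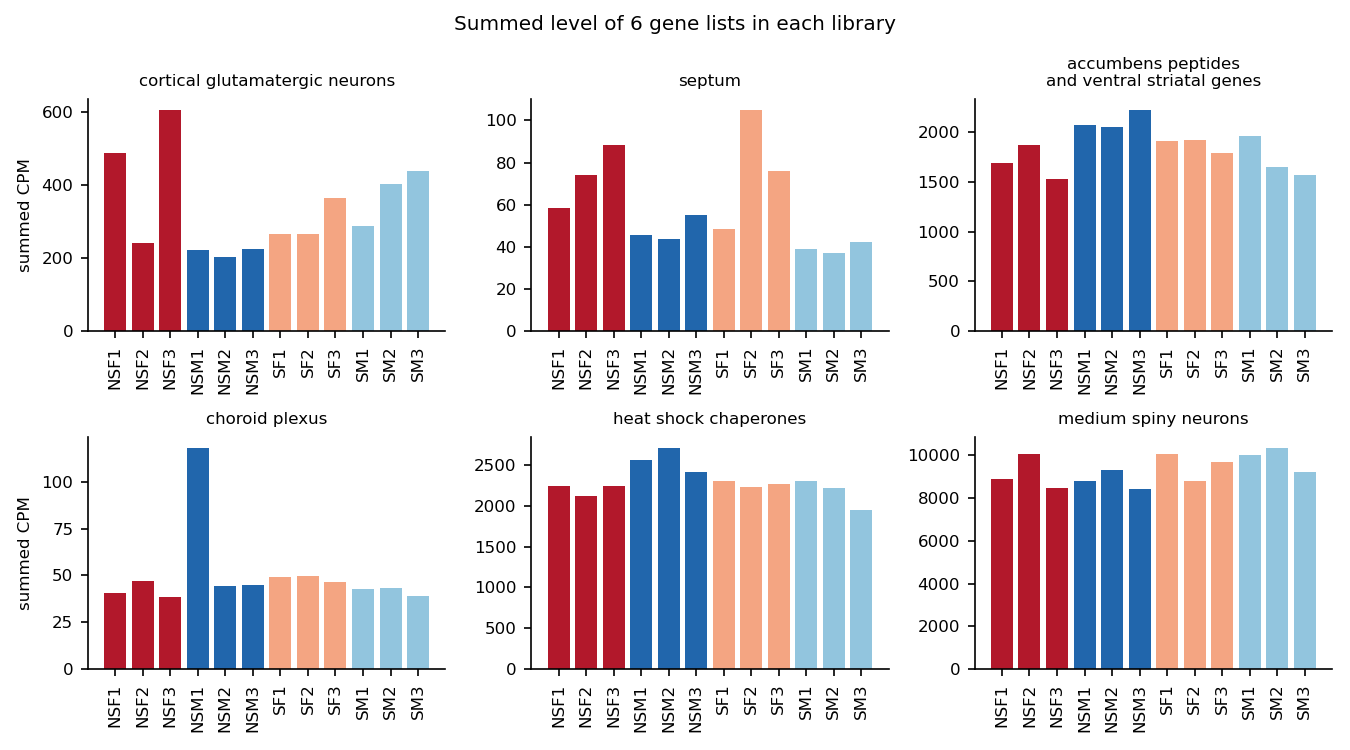
Summed TMM-scaled CPM of 6 gene lists in each of the 12 libraries (dark red, unstressed females; dark blue, unstressed males; pale orange, stressed females; light blue, stressed males), with bars from 0. Cortical genes were high in NSF1 and NSF3 only among the unstressed libraries, septal genes were above all male libraries in each unstressed female library, ventral striatal genes and chaperones were above all female libraries in each unstressed male library, and choroid plexus genes stood out in NSM1.

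Of 13 interneuron genes 2 were called higher and 0 lower, where 4.27% of all autosomal genes were called higher. *Pvalb*, the calcium-binding protein of fast-spiking interneurons, was called higher with 4.17, 2.11 and 4.82 CPM in NSF and 2.26, 2.46 and 1.54 CPM in NSM. *Cck*, the cholecystokinin gene, which glutamatergic neurons of the cortex also express, was called higher with 23.02, 3.93 and 29.2 CPM in NSF and 2.47, 2.05 and 4.36 CPM in NSM. In both genes NSF2 lay among or next to the males, as in the cortical genes, and with the cortical covariate the differences were 0.19 and -0.14 (log2). *Sst*, *Npy* and *Nos1*, which mark another interneuron class, lay at 0.35, 0.16 and 0.10. The call of *Pvalb* was lost without NSF1 (0.57), NSF3 (0.47), NSM1 (0.78) or NSM3 (0.51), and that of *Cck* without NSM1 (2.08) or NSM2 (1.98), while 6 members were called without NSF2. None of 7 cholinergic genes was called. *Chat*, which makes acetylcholine, had 16.5, 20.1 and 15.95 CPM in NSF and 20.1, 20.2 and 20.9 CPM in NSM, and *Slc5a7*, the choline transporter, had 43.8, 49.7 and 41.6 CPM in NSF and 52.6, 58.5 and 51.01 CPM in NSM. The latter was lower in each female library than in any male library, at -0.26 ± 0.083 (log2, SE, adjusted p = 0.162), and *Chat* lay at -0.22 with overlap.

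Of the glial lists, that of oligodendrocyte precursors was the one with called genes. *Olig2* (chromosome 16, 91225795 to 91228922), a lineage-determining factor of oligodendrocytes, had 22.4, 22.5 and 24.04 CPM in NSF and 16.1, 17.6 and 18.03 CPM in NSM, a difference of 0.41 ± 0.070 (log2, SE, adjusted p = 0.0304), and was the only member of any list that was both called and under an adjusted p of 0.05. Its neighbour *Olig1* had 72.5, 78.4 and 91.01 CPM in NSF and 46.1, 57.4 and 67.2 CPM in NSM, a difference of 0.51 ± 0.16 (log2, SE, adjusted p = 0.162). They were the 2 called genes of 9 on the list of oligodendrocyte precursors, where 4.27% of all autosomal genes were called higher. On this list *Pdgfra* and *Cspg4* lay at -0.042 and 0.13. Exons of *Olig2* and *Olig1* are 58.2% and 60.8% GC, and with the GC content removed their differences were 0.27 and 0.28 (log2) and neither was called. The call of *Olig2* was lost without NSF3 (0.38) or NSM1 (0.36), and that of *Olig1* without NSM1 (0.36). Of 11 myelin genes 0 were called and 9 had positive values. *Mbp*, encoding myelin basic protein, had 2215, 2042 and 2131 CPM in NSF and 1846, 1766 and 1760.5 CPM in NSM, and all 3 females lay above all 3 males at a difference of 0.25 ± 0.060 (log2, SE, adjusted p = 0.103). *Mog* lay at 0.15.

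None of 14 astrocyte genes was called, with a median of -0.012 (log2). *Gfap* had 34.8, 27.4 and 34.7 CPM in NSF and 27.1, 30.3 and 29.2 CPM in NSM and *Aqp4*, the water channel of astrocyte endfeet, had 83.03, 77.8 and 88.3 CPM in NSF and 92.6, 101 and 88.5 CPM in NSM. Likewise none of 16 microglial and complement genes was called, and all lay between -0.11 and 0.13 (log2). *Cx3cr1* had 55.9, 58.6 and 55.1 CPM in NSF and 58.4, 56.2 and 52.4 CPM in NSM, and *P2ry12* lay at 0.038. At an unadjusted p under 0.05 lay 4 of the astrocyte genes, among which *Aqp4* was lower in every female library, and 0 of the microglial genes, where 15.7% of all autosomal genes did. *Fabp7*, described above, is not on these lists.

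All 10 endothelial genes and all 10 genes of pericytes and smooth muscle had positive log2 fold changes, at medians of 0.17 and 0.12, and of these 20 only *Mylk*, the myosin light chain kinase gene, was called. Beside this and the counts of fibroblast and blood cell genes below stands the 5.29% called over all autosomal genes. *Mylk* had 10.98, 7.77 and 13.4 CPM in NSF and 8.03, 7.13 and 7.50 CPM in NSM, with NSF2 among the males, and its difference was -0.14 (log2) with the cortical covariate. The call of *Mylk* was lost without NSF1 (0.39), NSF3 (0.26), NSM2 (0.40) or NSM3 (0.43). *Cldn5* and *Flt1* lay at 0.22 and 0.056. The endothelial gene *Vwf*, on none of the lists and chosen after its values were seen, was called higher at 0.61 ± 0.11 (log2, SE, limma, adjusted p = 0.0457). It had 17.8, 18.8 and 15.95 CPM in NSF and 13.6, 11.1 and 9.94 CPM in NSM. *Acvrl1*, described above, is not on these lists either. *Col1a1*, a fibrillar collagen chain, was the 1 gene called of 11 meningeal fibroblast genes, with 2.73, 3.48 and 3.46 CPM in NSF and 1.66, 2.01 and 2.54 CPM in NSM, though *Gm17329* overlaps its exons on the other strand. Of 12 blood cell genes 5 autosomal ones passed the filter, and *Hbb-b1*, a beta globin of red cells, was called higher with 22.6, 18.2 and 17.5 CPM in NSF and 13.9, 15.8 and 12.4 CPM in NSM, and *Hba-a1*, *Hba-a2* and *Hbb-b2* lay at 0.27, 0.38 and 0.26. The fifth, *Lcn2*, a secreted protein of neutrophils, had 0.248, 0.379 and 0.149 CPM in NSF and 0.106, 0.935 and 1.34 CPM in NSM, with overlap, at -0.96 ± 0.77 (log2, SE). Globin genes have near-identical copies between which reads can be split, and the call of *Hbb-b1* was lost without NSF1 (0.35) or NSM3 (0.38).

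Among choroid plexus genes 1 male library stood apart, and no sex difference was called. *Ttr*, the transthyretin gene that dominates choroid plexus RNA, had 1.33, 0.742 and 0.616 CPM in NSF and 66.1, 0.671 and 2.49 CPM in NSM. NSM1 was far above the other 5 libraries. The summed level of the 11 autosomal choroid plexus genes tested, of 14 listed, was 118 CPM in NSM1 and 38.5 to 47.2 CPM in the others, and none was called. Without NSM2, or without NSM3, 2 of them were called lower, and without NSM1 1 higher. Other tests called *Ttr* lower, edgeR at -4.71 and DESeq2 at -4.69 (log2). *Kl* lay at -0.32. Of 8 ependymal genes, *Rarres2*, encoding the secreted protein chemerin, was called higher at 0.39 (log2), just past the fold limit and with exons shared with *Lrrc61* on the other strand, while *Foxj1*, the factor of motile cilia, lay at 0.14. The share called higher over all autosomal genes was 4.27%. The call of *Rarres2* was lost without NSF2 (0.27), NSF3 (0.41), NSM1 (0.34) or NSM2 (0.39), and also with GC content removed (0.36), with the cortical covariate (0.51), under DESeq2 and with quantile or library size scaling. Of the ependymal genes 4 were called higher without both NSF1 and NSF3.

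The receptor lists gave 0 or 1 called gene each, where 5.29% of all autosomal genes were called. *Htr4*, a receptor coupled to cyclic AMP, was the 1 gene called of 12 serotonin receptor genes, with 9.08, 10.2 and 9.13 CPM in NSF and 17.1, 18.8 and 17.8 CPM in NSM. All females lay far below all males, a difference of -0.91 ± 0.19 (log2, SE, adjusted p = 0.0672). With the cortical covariate it was -0.49. *Htr1b*, *Htr2a* and *Htr6* lay at -0.31, 0.045 and 0.34. *Drd3*, described above, was the only called gene of 13 autosomal ones in dopamine signalling, and none of 8 opioid genes was called, with *Penk* at -0.17. Of 17 ionotropic glutamate receptor genes, *Grin3b*, a rare NMDA receptor subunit, was called higher from 0.428, 0.693 and 0.488 CPM in NSF and 0.176, 0.305 and 0.395 CPM in NSM, though *ORF61* overlaps its exons on the other strand. *Grm2*, a presynaptic metabotropic receptor, was the 1 called of 7, with 5.41, 2.89 and 6.80 CPM in NSF and 2.29, 2.50 and 3.67 CPM in NSM. Exons of *Grin3b* and *Grm2* are 63.5% and 59.9% GC, both calls were lost with the GC content removed, and *Grm2* lay at -0.11 with the cortical covariate. None of 11 GABA-A receptor genes was called, although *Gabra2*, with 51.8, 51.9 and 49.1 CPM in NSF and 57.9, 63.2 and 60.3 CPM in NSM, lay lower in every female library, at -0.25 ± 0.051 (log2, SE, adjusted p = 0.0669). The call of *Grin3b* was lost without NSF2 (0.73) or NSM1 (0.61), and that of *Grm2* without NSF1 (0.62), NSF3 (0.46), NSM1 (0.58) or NSM2 (0.67).

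Steroid-related genes gave 2 calls in unstressed mice, 1 each of 10 and 13 genes, where 5.29% of all autosomal genes were called. *Oxtr*, the oxytocin receptor, was the 1 called of 10 genes of the sex steroid system, with 7.39, 4.22 and 10.2 CPM in NSF and 4.20, 3.43 and 3.98 CPM in NSM. NSF2 lay only just above the highest male, and the difference of 0.77 became -0.0032 with the cortical covariate and 0.11 without NSF1 and NSF3 (log2). The oestrogen receptor genes *Esr1* and *Esr2*, the progesterone receptor gene *Pgr* and the aromatase gene *Cyp19a1* were not called, at 0.28, 0.10, 0.13 and 0.44. Of 13 autosomal targets or partners of the glucocorticoid receptor, *Mt1*, a metallothionein, was called higher with 151, 142 and 133 CPM in NSF and 82.3, 124 and 125 CPM in NSM, just past the fold limit, and its call was lost without NSF1 (0.33) or NSM1 (0.18). It was lost as well with GC content removed (0.29), with the cortical covariate and under every other test and scaling tried. *Pdk4*, a kinase that inhibits pyruvate dehydrogenase, was under an adjusted p of 0.05 but just short of the fold limit, with 12.2, 12.8 and 13.2 CPM in NSF and 16.9, 17.05 and 15.4 CPM in NSM. The receptor gene *Nr3c1* and the targets *Fkbp5* and *Sgk1* lay at -0.012, 0.044 and 0.0061.

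Immediate early genes did not move together. Of 14, *Junb*, *Egr3*, *Egr4* and *Ier2* were called higher and *Btg2* lower in females, and the median of the list was -0.17 (log2). The shares over all autosomal genes were 4.27% called higher and 1.02% called lower. *Junb*, an AP-1 subunit, had 30.9, 35.02 and 56.03 CPM in NSF and 11.4, 28.5 and 38.03 CPM in NSM, with NSM3 above NSF1 and NSF2. *Ier2* had 1.69, 1.65 and 2.76 CPM in NSF and 0.741, 1.16 and 1.28 CPM in NSM and did not overlap. *Fos*, *Fosb*, *Egr1*, *Arc* and *Npas4* were not called, at -0.50, -0.32, -0.021, -0.17 and 0.057. The 4 genes called higher have exons of 60.9% to 68.4% GC, against a median of 50% over all autosomal genes tested, and with GC content removed 1 of them, *Ier2*, was called. Removing NSM1 left 1 called higher and 3 lower, removing NSF2 2 higher and 0 lower, and removing NSF3 2 higher and 7 lower. The call of *Btg2* was lost without NSF2 (-0.083), NSM1 (-0.38), NSM2 (-0.38) or NSM3 (-0.41).

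Heat shock chaperones lay slightly lower in females. None of 11 was called, since the differences were under 1.3-fold, but 10 had negative log2 fold changes, 6 had an unadjusted p under 0.05, and the same 6 were separated between the sexes without overlap, where 15.7% and 19.6% of all autosomal genes were. *Hspa5*, the chaperone BiP of the endoplasmic reticulum, had 306, 355 and 366 CPM in NSF and 434, 463 and 392 CPM in NSM, a difference of -0.33 ± 0.080 (log2, SE, adjusted p = 0.105). *Dnajb1*, a partner of Hsp70, had 38.1, 38.4 and 43.97 CPM in NSF and 50.4, 49.8 and 44.5 CPM in NSM, a difference of -0.27 ± 0.064 (log2, SE, adjusted p = 0.103). *Hspe1*, whose upstream heat shock elements are shown above, lay at -0.17, and *Hspd1* at -0.15. *Hspa1a* and *Hspa1b*, near-identical copies between which reads can be split, lay at 0.29 and -0.091. Without NSF3 2 were called lower, and without NSM1 or NSM3 1. The summed level of the list was 2116 to 2240 CPM in females and 2419 to 2711 CPM in males. *Chordc1*, the Hsp90 partner outside the list, had 61.2, 60.5 and 65.6 CPM in NSF and 76.6, 83.8 and 80.3 CPM in NSM, lower in every female library at -0.36 ± 0.055 (log2, SE, adjusted p = 0.0192), short of the fold limit except without NSF3 (-0.40) or NSM1 (-0.40).

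Clock genes gave no calls and interferon genes 1, where 5.29% of all autosomal genes were called. None of 13 clock genes was called, with *Per1* and *Per2* at 0.045 and 0.050 and *Dbp* and *Arntl* at 0.28 and -0.24 (log2). Of 15 genes of the interferon response and MHC class I, *Irf7*, a regulator of interferon genes, was called higher with 1.13, 1.24 and 1.40 CPM in NSF and 0.777, 0.813 and 0.907 CPM in NSM, but its antisense neighbour *Phrf1* overlaps its exons, and *Ifit1* and *Isg15* lay at 0.040 and -0.018.

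To ask which of these differences were also present after SCVS, the same contrast was read in the stressed libraries, which share no library with the unstressed ones. There, 799 autosomal genes (4.68%) were called higher and 142 (0.831%) lower in females. Of the 729 genes called higher before stress, 209 (28.7%) were also called higher in stressed females, and of the 175 called lower, 4 (2.29%) were also called lower. In the opposite direction 5 of the former were called lower and 14 of the latter higher after stress. The median log2 fold change in stressed mice was 0.25 for the genes called higher before stress, 0.056 for those called lower and 0.0070 over all autosomal genes. In stressed mice 74.2% of the former were higher in females, against 51.95% of all genes, and 42.3% of the latter were lower in females, against 48.05% of all. Among the 42 genes at an adjusted p under 0.05 before stress, 15 of 26 higher and 6 of 16 lower kept their sign, and 3 were called the same way, *Nrgn*, *Hapln2* and *Cdh19*. Mean CPM in NSF, SF, SM and NSM was 8.92, 8.41, 10.5 and 4.61 for *Fam198b*. It was 4.01, 3.99, 4.18 and 2.08 for *Atp6ap1l*, 1.88, 1.97, 1.93 and 3.22 for *Gem* and 8.28, 8.73, 8.61 and 13.4 for *Utp14b*. In these genes, the largest differences in each direction, unstressed males alone stood apart. For *Cdh19* the means were 9.95, 9.29, 7.12 and 7.07, apart by sex. How many of the 42 follow either pattern was not counted, and its cause was not tested.

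Of the 7 septal genes 5 were called higher in females before stress and 7 after it, of the 16 cortical genes 9 and 0, where 4.27% and 4.68% of all autosomal genes were. Of the 12 ventral striatal genes 5 were called lower before stress, and 3 were called higher and 0 lower after it. The interaction, the unstressed sex difference less the stressed one, had an unadjusted p under 0.05 for 1 septal, 11 cortical and 8 ventral striatal genes, and for 9 of the 11 heat shock chaperones, of which 0 were called before stress and 4 were called higher after it. Over all autosomal genes 9.42% had an interaction p under 0.05. In stressed mice *Zic1* had 28.1, 59.4 and 44.6 CPM in SF and 21.1, 20.5 and 23.5 CPM in SM, a difference of 0.96 ± 0.23 (log2, SE, adjusted p = 0.0884), and SF1 was the lowest of the females. The septal median was 0.96 (log2) after stress. The cortical median was -0.32 after stress, with *Slc17a7* at 37.02, 34.5 and 93.2 CPM in SF and 39.5, 119 and 162 CPM in SM. All 12 ventral striatal genes were lower in females before stress, and their median was 0.18 after it. *Nts* had 39.6, 40.1 and 29.9 CPM in SF and 37.1, 15.99 and 23.9 CPM in SM, a difference of 0.60 ± 0.22 (log2, SE), and SM2 and SM3 were the lowest of all 12 libraries together with NSF2. The interaction of *Nts* was -1.40 ± 0.30 (log2, SE, adjusted p = 0.142), that of *Prok2* -1.73 ± 0.33 (adjusted p = 0.120) and that of *Peg10* -1.05 ± 0.25 (adjusted p = 0.182), none under 0.05.

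For 4 autosomal genes (0.0234%) this interaction had an adjusted p under 0.05, and they were chosen for that value. *Chordc1* had 66.6, 58.8 and 61.6 CPM in SF and 52.2, 53.97 and 53.7 CPM in SM, a sex difference of 0.22 after stress against -0.36 before it, which differed by -0.59 ± 0.078 (log2, SE, adjusted p = 0.0328). *Slc5a3* had 51.4, 53.1 and 48.3 CPM in SF and 43.8, 42.1 and 38.4 CPM in SM, and its sex difference changed from -0.45 to 0.30 (interaction -0.74 ± 0.11, log2, SE, adjusted p = 0.0328). *Banp*, encoding a nuclear protein that binds DNA, had 16.1, 20.8 and 21.3 CPM in NSF and 23.4, 26.3 and 27.1 CPM in NSM before stress and 21.3, 19.4 and 18.9 CPM in SF and 11.2, 11.5 and 14.2 CPM in SM after it, an interaction of -1.10 ± 0.16 (log2, SE, adjusted p = 0.0328). In these 3 genes females were lower than males before stress and higher after it, without overlap in either pair of groups. The unstressed and stressed means differed more in males than in females. They were 62.4 and 62.3 CPM in females and 80.2 and 53.3 CPM in males for *Chordc1*. For *Slc5a3* they were 46.3 and 50.9 CPM in females and 63.1 and 41.5 CPM in males, and for *Banp* 19.4 and 19.9 CPM and 25.6 and 12.3 CPM. *Slc5a3* and *Banp* were called before stress, and the call of *Banp* was lost without NSF1 (-0.29) or NSM3 (-0.36). *Cables1*, a substrate adaptor of Cdk5, had overlapping values before stress, 19.8, 19.7 and 19.6 CPM in NSF and 20.7, 21.9 and 19.4 CPM in NSM, and a sex difference of 0.50 after it (interaction -0.57 ± 0.085, log2, SE, adjusted p = 0.0438). Its stressed means were 21.4 CPM in SF and 15.1 CPM in SM.

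**Figure D4:**
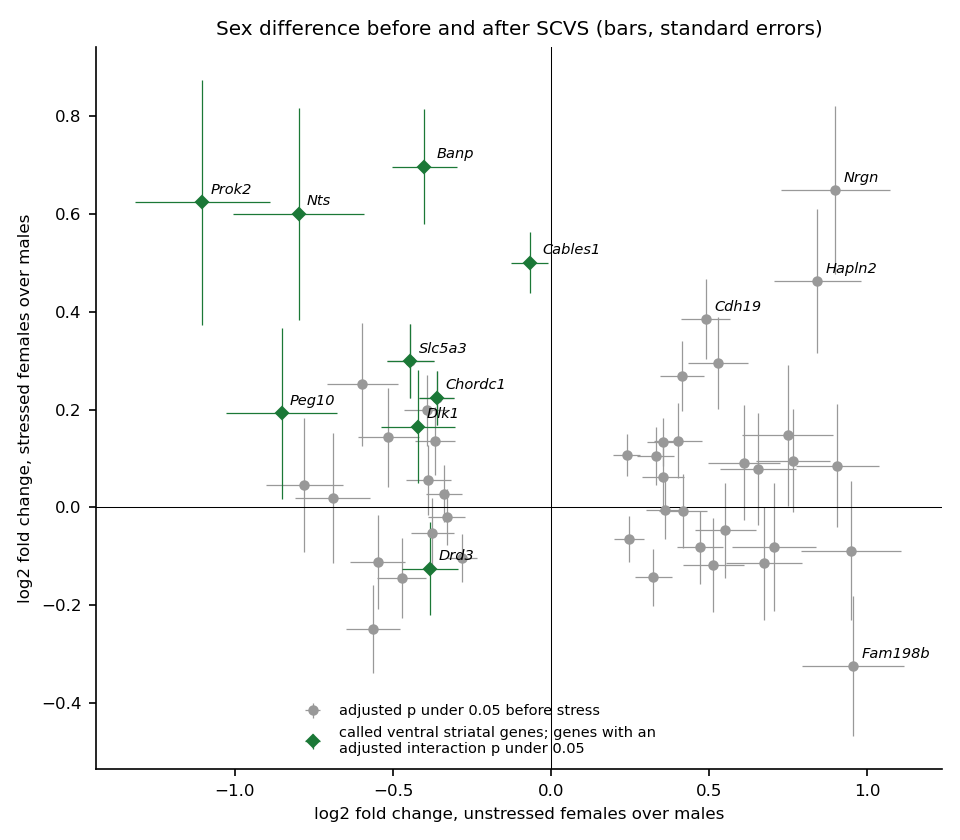
Log2 fold change of females over males before stress (horizontal) and after SCVS (vertical), with standard errors, for the 42 genes at an adjusted p under 0.05 before stress (grey) and for the called ventral striatal genes and the 4 genes with an adjusted interaction p under 0.05 (green). *Nts*, *Prok2*, *Peg10*, *Slc5a3*, *Chordc1* and *Banp* lie in the upper left, lower in females before and higher after stress, and *Nrgn*, *Hapln2* and *Cdh19* in the upper right.

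The called genes differed in GC content by direction. Exons of the genes called higher in unstressed females had a median GC content of 56.7%, those of genes called lower 47.7%, and those of all autosomal genes tested 50%. Of the decile of genes with the highest GC content, 17.6% were called higher and 0.117% lower, and of the lowest decile 1.35% and 1.64%. The 209 genes called higher both before and after stress had a median of 60.5%, and the other 520 called higher before stress 55.4%. In the most GC-rich decile the median level less the mean of all 12 libraries was 0.077, 0.14 and 0.20 (log2) in NSF1, NSF2 and NSF3 and -0.22, -0.061 and 0.090 in NSM1, NSM2 and NSM3, so that NSM3 lay between NSF1 and NSF2. With this dependence removed, 696 genes were called, 608 of them among the 904, and 88 rather than 213 genes were called the same way before and after stress. Without NSM1, the unstressed library lowest in GC-rich genes, 66 genes were called the same way, and without NSM3 356. The part of GC content in single genes was not tested.

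**Figure D5:**
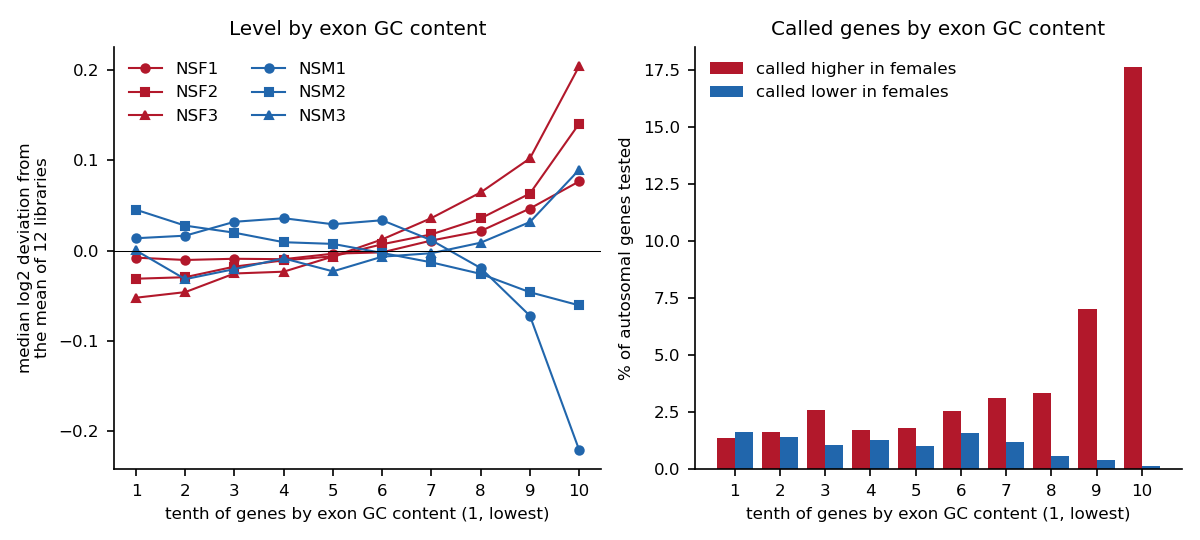
Left, median log2 level of autosomal genes in each unstressed library, less the mean of the 12 libraries, by decile of exon GC content. Right, percentage of the genes in each decile that were called higher (red) or lower (blue) in unstressed females, rising to 17.6% called higher in the most GC-rich decile, in which NSM1 lies lowest and NSF3 highest on the left.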

How the data were processed

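Raw counts of reads per gene were deposited by the authors as 1 table of 38293 Ensembl genes. Per the study's methods, polyA RNA was made into TruSeq libraries, paired reads were aligned with TopHat2 to NCBIM37 (Ensembl annotation), and reads were counted with HTSeq. That kit is known not to mark strand, which the sources used here do not state, nor do they give the counting's strand setting. All 12 mRNA libraries, of between 41076780 and 60867747 counted reads, entered the fit, and 0 columns of other samples were present. The study's own filter was applied, more than 5 reads in 80% or more of any condition's libraries, which left 18593 genes, a set that differs in size from the study's, and the counts of those were scaled by TMM (edgeR 4.0.16), transformed with voom and fitted with limma 3.58.1 (R 4.3.3) to the 4 groups. CPM values are TMM-scaled. Contrasts were NSF less NSM, SF less SM and their difference. P-values were adjusted by the Benjamini-Hochberg method over all genes tested, are two-sided, and measure the spread between pools only. With 3 libraries a group an exact permutation test cannot go below 0.1 and was not used. Autosomal genes were taken by position in the NCBIM37 annotation, and 798 genes without a position there were left out of the autosomal counts.

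A gene was called where the fold change was 1.3 or more and the unadjusted p was under 0.05. Named were the 10 autosomal genes with the largest fold change in each direction among those with groups that did not overlap, 10 or more reads on average and an adjusted p under 0.05, and in each of 32 lists of cell type, region, receptor and response genes every called member, or the first 2 members as listed where none was called. Further list members were chosen after their values were seen, and some single values of list members are not reported here. The members and lists were chosen with earlier results of these data known. GC content is that of merged exons. As alternatives, the counts were tested with DESeq2 1.42.0 and with the quasi-likelihood test of edgeR, and limma was rerun with other scalings and filters, thinning of all libraries to the smallest total, quality weights, the replicate number as a block, the 6 unstressed libraries alone, the mean level of the cortical list as a covariate, and each unstressed library left out. A correction for GC content by lowess in each library and a fit without both NSF1 and NSF3 were chosen after seeing the data. On simulated counts with 200 genes changed 1.5-fold the limma fit called 88.5% of them, and 98.5% of those changed 2-fold, while with no gene changed it called 327 of 18343. At an adjusted p under 0.05 it found 63% of the genes changed 1.5-fold and 88.5% of those changed 2-fold. Beside these, 9 and 5 unchanged genes passed, and 1 gene passed with none changed. Small RNA data were not used here.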

Additional observations from a re-analysis of the deposited data

Results flagged for a closer look

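For 4 autosomal genes the sex difference before stress differed from that after SCVS at an adjusted p under 0.05 (limma, interaction of sex and stress over all genes tested). The unstressed difference less the stressed one was -0.74 (log2) for *Slc5a3*, -0.59 for *Chordc1*, -1.10 for *Banp* and -0.57 for *Cables1*, with adjusted p-values of 0.0328, 0.0328, 0.0328 and 0.0438. An unadjusted p under 0.05 was found for 1609 autosomal genes in this test. *Slc5a3* shares exons with *Mrps6* and *Gm16309*, and *Cables1* overlaps *Gm6277* and *Mir1901* on the other strand.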

How the results depend on the processing

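The 904 called genes became 1359 when genes with at least 1 read in any library were tested, 393 with the cortical covariate, 29 under an adjusted p with the fold limit, 2680 without a minimum fold and 642 to 1136 when 1 library was left out. The 729 higher calls became 228 with the cortical covariate, 19 under an adjusted p, 1826 without a minimum fold and 448 to 982 with 1 library left out. The 175 lower calls became 94 under DESeq2, 267 under quantile normalization, 370 with 1 read in any library, 110 with 10 reads in every library, 10 under an adjusted p, 854 without a minimum fold and 154 to 225 with 1 library left out. The 42 genes at an adjusted p under 0.05 became 451 under DESeq2, 27 with library size alone, 65 under quantile normalization, 24 with 1 read in any library, 8 in the 6 unstressed libraries alone, 342 with quality weights, 0 with the cortical covariate, 1 without both NSF1 and NSF3 and 0 to 441 with 1 library left out. The 213 genes called the same way before and after stress became 361 with quality weights, 60 with the cortical covariate, 88 with GC correction, 0 under an adjusted p, 745 without a minimum fold and 66 to 356 with 1 library left out. The cause of these changes was not tested, beyond the genes or libraries an alternative leaves out.

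Higher calls made up 80.6% of all calls, 69.2% under quantile normalization and 58.0% with the cortical covariate. With that covariate the sign turned for *Cck* (-0.14), *Slc17a7* (-0.095), *Tbr1* (-0.11), *Nrn1* (-0.23), *Slc17a6* (-0.24), *Mylk* (-0.14), *Grm2* (-0.11) and *Oxtr* (-0.0032, log2). *Slc17a7*, *Tbr1* and *Nrn1* belong to the list whose mean level is the covariate, so their differences shrink by construction. Over the 91 named genes and all alternatives, 1745 values kept direction and side of the threshold, 225 values of 49 genes lost the call, 20 values of 4 genes gained it and 8 turned sign. The GC correction and the fit without both NSF1 and NSF3 were chosen after seeing the data.

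Same-numbered libraries share only a number, since no source ties their mice. The correlation of their deviations from the group means was 0.14 for NSF1 and NSM1, -0.017 for NSF2 and NSM2 and 0.13 for NSF3 and NSM3, and NSF2 correlated best with NSM3 (0.050). With the replicate number as a block, 530 genes had an adjusted p under 0.05 in 12 libraries and 532 in the 6 unstressed ones, against 42 without it, and 920 and 908 genes were called.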
